A study of Mus musculus with 19 samples.

Results

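The mitochondrial transcript share is the percent of a cell's unique molecular identifiers (UMIs, the tags that mark single captured RNA molecules) that came from genes encoded in mitochondrial DNA. It was deposited for each of 41099 CD8 T cells, which are all the cells of the per-cell expression table, and all 41099 were used. The cells came from 9 expression libraries and carried 1 of 13 cluster names given by the authors. The series sets CD8 T cells of mice that cleared an injected squamous cell carcinoma beside those of mice whose tumour kept growing. The carcinoma was A223, labelled as derived from C57BL/6, and every mouse was a C57BL/6J animal that had received it, the donors of the spleens included. There were 3 libraries from regressing tumours, 3 from growing tumours, 2 from the spleens of regressing hosts and 1 from the spleen of a growing host. Tumours had been digested with liberase before CD8 T cells were sorted by flow cytometry. How the spleens were dissociated, the age of the mice, the time after injection and whether each library is 1 mouse are not given in the sources used here, so the p-values measure the spread between libraries, which may in part be technical. Replicate 1 of each tumour state was read with the 3′ kit and the other 7 libraries with the 5′ kit.

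Mitochondrial DNA of the mouse encodes 13 proteins, 22 transfer RNAs and 2 ribosomal RNAs in the RefSeq annotation of GRCm38.p6. The proteins are subunits of the respiratory chain and of ATP synthase: the ND proteins belong to complex I, CYTB to complex III, COX1 to COX3 to complex IV, and ATP6 and ATP8 to ATP synthase. They are transcribed inside the organelle as long polycistronic RNAs, which are then cut and mostly polyadenylated, so that kits that capture poly(A) RNA read them. Resting naive T cells are known to rely mainly on oxidative phosphorylation, activation brings growth in cell size together with glycolysis and new mitochondria, and exhausted T cells in tumours have been described with impaired mitochondria. In single-cell data a high share is also widely used as a sign of a damaged cell, because cytoplasmic RNA leaks out before mitochondrial RNA does. A share rises when mitochondrial molecules become more numerous and equally when other molecules become fewer.

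The median share of all cells was 1.81% in regressing tumour replicate 1, 2.02% in replicate 2 and 1.78% in replicate 3. It was 1.82%, 2.20% and 1.71% in growing tumour replicates 1, 2 and 3. The spleens had 3.09% and 2.83% in regressing replicates 2 and 3 and 3.24% in growing replicate 3. The spleens therefore lay above all tumours, and the 2 tumour states overlapped. The middle 50% of cells of a library ran from 1.66% to 2.46% in regressing tumour replicate 2 and from 2.69% to 3.52% in regressing spleen replicate 2. Median UMIs per cell ranged over libraries from 4638.5 to 11712. No cell exceeded 9.83%, 7 cells had no mitochondrial UMI, and 988 barcode sequences occurred in more than 1 library, in 1985 cells. The per-cell table names no gene, so no marker could be set against the cluster names. Only the dividing names could be checked, against the cell-cycle calls. Of the cells of Dividing 1, 97.2% were called in S phase and 2.15% in G2M, Dividing 2 had 41.2% and 58.2%, and Dividing 3 had 5.42% and 83.0%. In the remaining clusters 56.8% to 90.8% of cells were called in G1. Naive 1 had 19.3% of cells called in S and 10.5% in G2M, and Naive 3 had 19.3% and 8.87%, although neither is named for division.

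Within the tumours of the 5′ kit, naive cells and the NKT-like cells stood above a narrow band formed by every other state. Naive 3, the only naive cluster with at least 20 cells in any tumour library, had medians of 2.58% and 2.74% in regressing replicates 2 and 3. It had 1.88%, 2.98% and 2.45% in growing replicates 1, 2 and 3. The cluster named NKT like, after T cells that carry natural killer features, had 2.75% and 2.43% in regressing tumour replicates 2 and 3 and 2.92% in growing replicate 2. These were the 2 highest clusters in the 3 tumour libraries that held both at this size. The 9 remaining clusters lay between 1.62% and 2.34% over all tumour libraries, and within 1 library they spanned 0.0898 to 0.353 percentage points. Growing tumour replicate 1, a 3′ library with 40 Naive 3 cells, differed from the 5′ tumours in that its Naive 3 median was only 1.07 times its lowest cluster. The other 3′ library, regressing tumour replicate 1, held 14 Naive 3 cells, below the minimum of 20, with a median of 1.51%.

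**Figure D1:**
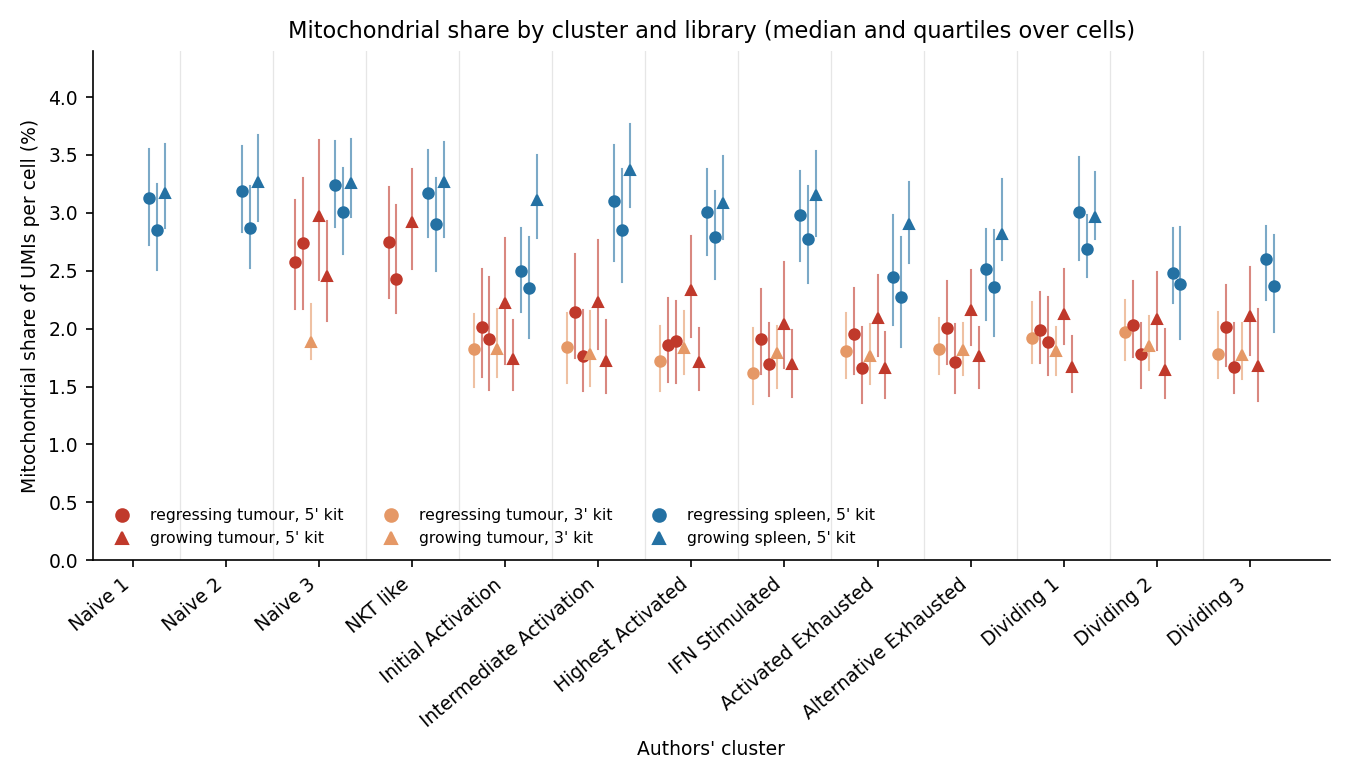
Median mitochondrial share (% of UMIs per cell, y axis) in each cluster named by the authors (x axis), with 1 point per library of at least 20 cells and a line over the middle 50% of its cells. Spleen points lie between 2.27% and 3.37%, and tumour points outside Naive 3 and NKT like lie between 1.62% and 2.34%.

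The clusters of this band had closely similar means. Initial Activation had 1.92% ± 0.175, Intermediate Activation 1.91% ± 0.217 and Highest Activated 1.89% ± 0.230 (mean of library medians ± SD, n = 6). Activated Exhausted had 1.82% ± 0.171 and Alternative Exhausted 1.88% ± 0.169. Activated Exhausted was nonetheless below Alternative Exhausted in 6 of 6 tumours, with differences of -0.102 to -0.0202 percentage points within a library. Dividing 1, 2 and 3 had 1.90% ± 0.157, 1.89% ± 0.165 and 1.84% ± 0.184. IFN Stimulated, named for genes induced by interferon, was lowest with 1.79% ± 0.159, against 2.53% ± 0.409 for Naive 3 (n = 5) and 2.70% ± 0.252 for NKT like (n = 3). IFN Stimulated lay below Initial Activation in 6 of 6 tumours, with Initial Activation higher by a mean of 0.131 ± 0.0820 percentage points. Of the 36 pairs among these 9 clusters, 8 had the same order in all 6 tumours. These counts were taken after the values were seen and are a description with no test.

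The spleens had another order. Naive 1, 2 and 3 had 3.05% ± 0.174, 3.11% ± 0.209 and 3.17% ± 0.143 (n = 3), and NKT like had 3.11% ± 0.185. Intermediate Activation, at 3.11% ± 0.258, lay close to the naive clusters and was below Naive 3 in 2 of 3 spleens. IFN Stimulated, at 2.97% ± 0.191, lay below Naive 1, 2 and 3 in each of the 3 spleens. Its difference from Naive 3 inside a library was -0.199 ± 0.0843 percentage points. By the mean over libraries, the exhausted clusters were the lowest of those with 3 libraries. Activated Exhausted had 2.45% and 2.27% in regressing spleens 2 and 3 and 2.91% in the growing spleen, and Alternative Exhausted had 2.51%, 2.36% and 2.82%. Initial Activation had 2.50%, 2.35% and 3.11% in the same libraries, so the growing spleen stood apart there. In both regressing spleens Initial Activation lay just below Alternative Exhausted. Dividing 2 had 2.48% and 2.38% and Dividing 3 had 2.60% and 2.37% in the regressing spleens, while the growing spleen held 14 and 9 such cells and gave no value.

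The clusters were then joined into classes by their names, with naive, activated (Initial Activation, Intermediate Activation and Highest Activated), exhausted and dividing cells compared inside each library. Naive cells had medians of 2.57% and 2.71% in regressing tumours 2 and 3, 1.88%, 2.96% and 2.42% in the growing tumours, 3.20% and 2.93% in the regressing spleens and 3.25% in the growing spleen. Exhausted cells had 1.98%, 1.69%, 1.79%, 2.12%, 1.70%, 2.49%, 2.30% and 2.87% in the same order. Naive cells were higher than exhausted cells in 8 of 8 libraries, by 0.624 ± 0.283 percentage points (mean ± SD over libraries; two-sided exact sign-flip test over 8 libraries, adjusted p = 0.0195 over 5 class pairs). The difference was 0.654 ± 0.350 in 5 tumours and 0.574 ± 0.172 in 3 spleens. The authors drew the clusters from the expression of these same cells, so the class p-values say how well the libraries agree and are no independent test of a state.

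Naive cells were also higher than activated cells, in 7 of 8 libraries, by 0.419 ± 0.331 percentage points (exact sign-flip test, adjusted p = 0.0260). The activated medians were 1.99%, 1.86%, 1.82%, 2.26% and 1.72% in those 5 tumours and 2.95%, 2.71% and 3.27% in the spleens. In tumours the gap was 0.581 ± 0.305, whereas in spleens it was 0.148 ± 0.147 with the growing spleen at -0.0210. The call was lost (exact sign-flip test, adjusted p = 0.0521) when growing tumour replicate 1, regressing tumour replicate 3, regressing spleen replicate 2 or regressing spleen replicate 3 was left out, with differences of 0.469, 0.356, 0.443 and 0.448.

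Activated cells were higher than exhausted cells in 8 of 9 libraries, by 0.182 ± 0.193 percentage points (exact sign-flip test, adjusted p = 0.0195). The library differences were 0.403 to 0.464 percentage points in the 3 spleens and -0.00799 to 0.171 in the 6 tumours, so the tissues did not overlap. In the regressing spleens Initial Activation, at 2.50% and 2.35%, was close to the exhausted class, at 2.49% and 2.30%. Intermediate and Highest Activated had 2.79% to 3.10% there. Without the top spleen clonotypes described further on, Activated Exhausted rose from 2.45% and 2.27% to 2.60% and 2.48%. Initial Activation then had 2.60% and 2.44%. Weighting activated and exhausted cells to an equal spread over UMI strata left a difference of 0.158 percentage points. That ended the call (exact sign-flip test, adjusted p = 0.0537). Dividing cells had a share 0.0908 ± 0.113 percentage points above exhausted cells, in 7 of 9 libraries (exact sign-flip test, adjusted p = 0.0342). That call was lost when any of 6 single libraries was left out, namely the 3 spleens, growing tumour 1 or regressing tumours 1 or 3, with differences of 0.0658 to 0.0969. It was also lost with pooled UMIs (0.0441, exact sign-flip test, adjusted p = 0.270) and without cells at 5% or more (0.0835, adjusted p = 0.0625). In G1 cells alone the difference was 0.114, but there the exact sign-flip test could not pass (adjusted p = 0.312). Only 0.614%, 0.534% and 11.6% of cells of Dividing 1, 2 and 3 were called in G1. That setting therefore held 3 tumour libraries and no spleen. Dividing cells lay below activated cells in 6 of 9 libraries, by a mean of -0.0907 ± 0.134, which did not pass (exact sign-flip test, adjusted p = 0.0703). Dividing cells carried by far the most RNA, with median UMIs from 8311 to 18987 over libraries against 4310 to 12284 in exhausted cells.

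**Figure D2:**
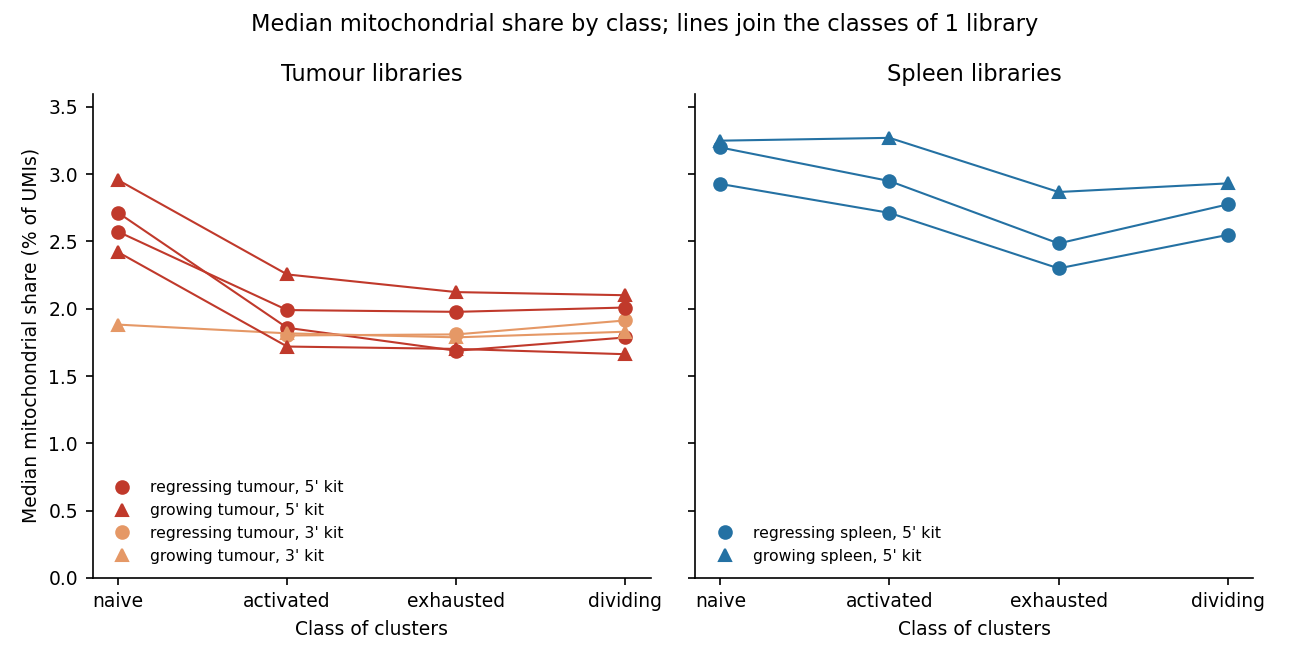
Median mitochondrial share (% of UMIs, y axis) of the naive, activated, exhausted and dividing classes (x axis), with lines joining the classes of 1 library, tumours on the left and spleens on the right. Lines of the 5′ tumours drop from naive to activated and then run nearly level, while spleen lines drop at the exhausted class, where the values are 2.49%, 2.30% and 2.87%.

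Whether tumour and spleen differ beyond their mix of states was asked within each cluster, with the 4 tumour and 3 spleen libraries of the 5′ kit. Tumour cells had the lower share in 11 of 11 clusters. The tumour and spleen medians did not overlap in 10 of the 11 (90.9%), and 7 of 11 passed the test (63.6%, exact two-sided permutation test of 4 libraries against 3, adjusted p = 0.0449 for each, from a p of 0.0286 that is the smallest this design can give). Over the 8 clusters present in all 7 libraries, the mean share was 2.01% ± 0.205 in tumours and 2.86% ± 0.223 in spleens, a difference of -0.847 percentage points and a ratio of 0.704 (exact permutation p = 0.0286). Over all cells, with no regard to cluster, the means were 1.93% ± 0.225 and 3.05% ± 0.208, a difference of -1.13 percentage points.

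The widest gaps were in Intermediate Activation and IFN Stimulated. Intermediate Activation had 2.14%, 1.77%, 2.23% and 1.72% in regressing tumours 2 and 3 and growing tumours 2 and 3, against 3.10%, 2.86% and 3.37% in the spleens. The 2 tissues were far apart there, by -1.14 percentage points. IFN Stimulated differed by -1.14 percentage points as well, Highest Activated by -1.01 and Dividing 1 by -0.970. Activated Exhausted differed by -0.699, Initial Activation by -0.685 and Alternative Exhausted by -0.650. These were the 7 clusters that passed.

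The narrowest gaps were in Naive 3 and NKT like. Naive 3 differed by -0.483 percentage points, with 2.58%, 2.74%, 2.98% and 2.45% in the tumours and 3.24%, 3.01% and 3.26% in the spleens. The groups came close without overlapping, and the test was not passed (exact permutation test, adjusted p = 0.0733). NKT like was the cluster whose groups overlapped, with 2.70% ± 0.252 against 3.11% ± 0.185 (n = 3 each, exact permutation test, adjusted p = 0.200). Dividing 2 and Dividing 3 differed by -0.547 and -0.619 without overlap, but with 2 spleen libraries the exact test could not go below 0.0667. Differences among clusters in the size of this gap were not tested cluster by cluster. The classes were compared instead, as an addition made after the values were seen. The naive minus activated difference was 0.710 ± 0.112 percentage points in the 4 tumours and 0.148 ± 0.147 in the 3 spleens, and the activated minus exhausted difference was 0.0832 ± 0.0799 and 0.426 ± 0.0328. Each contrast between the tissues had an exact permutation p of 0.0286, the smallest possible, and neither passed after adjustment over 9 effects (adjusted p = 0.129).

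The share was then taken apart into mitochondrial and remaining UMIs. Both were raw counts with no adjustment for sequencing depth made here, so depth and RNA content cannot be told apart between libraries. Median UMIs per cell were 11712 in growing tumour 3 and 4638.5 to 7809 in the other libraries of the 5′ kit. Mitochondrial UMIs per cell were fewer in tumours in 9 of 11 clusters, with a median tumour-to-spleen ratio of 0.873 (0.652 to 1.12). The remaining UMIs were more numerous in tumours in 8 of 11 clusters, with a median ratio of 1.27 (0.820 to 1.54). Neither passed the test in any cluster (exact permutation test, lowest adjusted p = 0.157 and 0.471). The values lay differently from cluster to cluster. In Naive 3 the mitochondrial UMIs were 139 ± 17.0 in tumours and 195 ± 24.9 in spleens, a ratio of 0.715, and the remaining UMIs had a ratio of 0.854. In Alternative Exhausted the mitochondrial UMIs were 173 ± 47.1 against 154 ± 52.0, a ratio of 1.12, while the remaining UMIs were 8809 ± 2699 against 5724 ± 1313, a ratio of 1.54. With tumour and spleen cells weighted to an equal spread over UMI strata in each cluster, every one of the 7 differences kept its sign, between -1.08 and -0.663 percentage points, but none passed (exact permutation test, lowest adjusted p = 0.0786). Tissue, the digestion of the tumours and the handling of the samples cannot be told apart in this design.

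**Figure D3:**
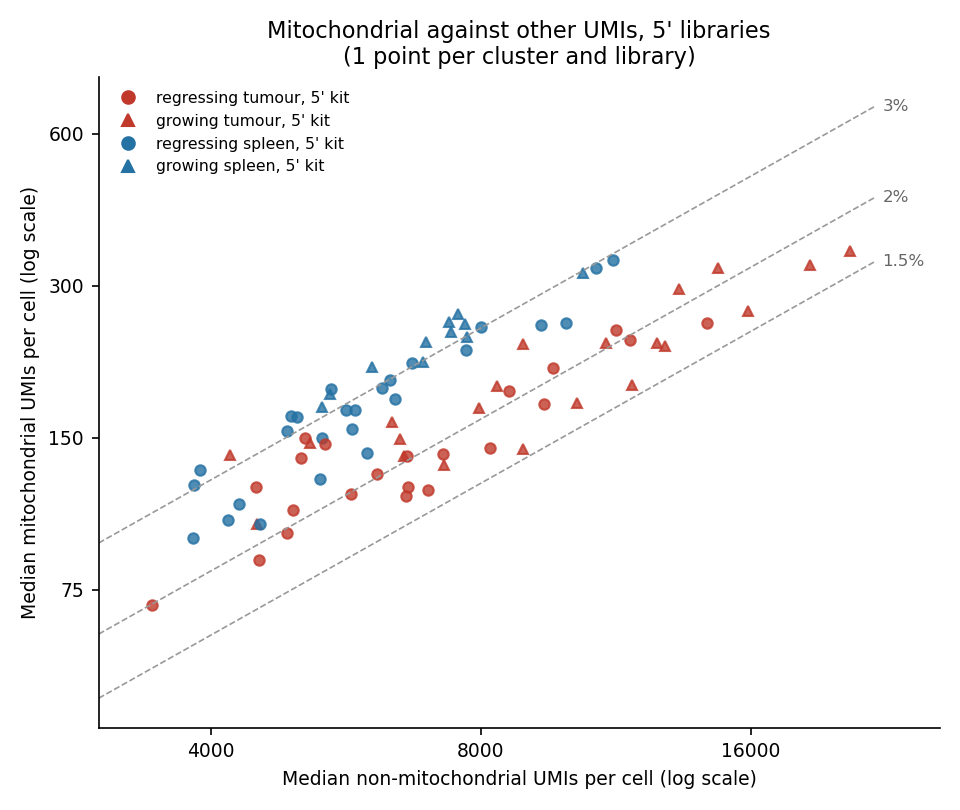
Median mitochondrial UMIs per cell (y axis, log scale) against median non-mitochondrial UMIs per cell (x axis, log scale) in the 7 libraries of the 5′ kit, with 1 point per cluster and library and dashed lines at shares of 1.5%, 2% and 3%. Spleen medians of the share run from 2.27% to 3.37%, and those of tumours outside Naive 3 and NKT like lie at 2.34% or below, while tumour points extend to 20639 non-mitochondrial UMIs and spleen points to 11246.5.

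Growing and regressing tumours could not be distinguished by the share. Over the 9 clusters present in all 6 tumours the means were 1.89% ± 0.241 in growing and 1.86% ± 0.116 in regressing tumours (n = 3 each, exact permutation p = 0.90). The medians overlapped in all 10 clusters tested, so 0 of 10 (0%) were called by the exact permutation test, adjusted or not, although 3 libraries against 3 cannot go below 0.10. Activated Exhausted had 1.84% ± 0.226 in growing and 1.81% ± 0.145 in regressing tumours. Highest Activated differed most among the clusters with 6 libraries, by 0.134 percentage points, and of the growing tumours only replicate 2, at 2.34%, lay above the regressing range of 1.72% to 1.89%. That library had the highest share of the 6 tumours in 9 of 9 clusters that all of them held. Without it the mean over clusters was 0.109 percentage points lower in growing tumours (-0.109), and without regressing tumour replicate 3 it was -0.0163, so the sign of the state difference rested on single libraries.

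The spleens of the 2 states can only be described, with 1 growing and 2 regressing libraries. The growing spleen had the highest share in 10 of the 11 clusters that all 3 held, the exception being Dividing 1. Its excess over the mean of the regressing spleens was 0.686 percentage points in Initial Activation, 0.546 in Activated Exhausted and 0.135 in Naive 3. The regressing spleens held 706 cells of the top spleen clonotypes described further on and the growing spleen 10, and without them the excess was 0.607 in Initial Activation, 0.366 in Activated Exhausted and 0.135 in Naive 3. The kits were compared in the tumours, where the 3′ kit was used for replicate 1 alone, so that kit and replicate cannot be told apart. The 4 tumours of the 5′ kit averaged 1.91% ± 0.209 and the 2 of the 3′ kit 1.81% ± 0.00610 (exact permutation p = 0.667, where 4 against 2 cannot go below 0.0667), and 0 of 9 clusters (0%) had medians that did not overlap. The difference of 0.0969 percentage points became 0.229 with means over cells (exact permutation p = 0.133, with 3 clusters that did not overlap), and it ran from 0.0130 to 0.166 with 1 library left out.

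Cells at the top of the range were counted as well. Cells with a share of 5% or more numbered 619. They made up 1.24% of cells in regressing tumour 2 (exact Clopper-Pearson 95% interval 1.01% to 1.51%), 1.98% in regressing tumour 3 (1.67% to 2.33%), 2.09% in growing tumour 2 (1.68% to 2.56%) and 2.43% in growing tumour 3 (1.76% to 3.27%). The regressing spleens had 1.32% (1.06% to 1.62%) and 1.51% (1.22% to 1.85%) and the growing spleen 1.75% (1.37% to 2.21%), so the tissues overlapped. There was none among the 1655 and 1790 cells of the 3′ tumours, which allows shares of up to 0.181% and 0.168% when the limit is set at 3 counts of the total, and their highest values were 3.88% and 4.63%. These limits and intervals cover counting error only. The highest values in the 5′ libraries were 7.88% to 9.83%. Whether a cutoff on the share, differing by kit, had been applied before deposit was not tested. With such a cutoff the limits for the 3′ tumours would not apply. The 3′ libraries also held no cell under 2570 UMIs or under 1086 genes, whereas the lowest numbers of genes in the 5′ libraries were 501 to 585. Among cells at or above both minimums, the 5′ tumours had 0.751% to 1.91% at 5% or more and the spleens 0.686% to 1.62%, limits added after the values were seen. In the 5′ tumours such cells had a median of 3196 UMIs and 1396.5 genes against 6976 UMIs and 2160 genes in the rest. By class they were 4.71% ± 3.33 of naive, 1.83% ± 0.589 of activated, 0.915% ± 0.223 of exhausted and 3.06% ± 1.03 of dividing cells (n = 4). The naive values ran from 1.0% to 9.09% over libraries, and Naive 3 alone had 3.71% ± 1.82. Spleens had another order, with 1.29% ± 0.123 of naive, 2.34% ± 0.539 of activated, 0.619% ± 0.390 of exhausted and 0.325% ± 0.563 of dividing cells (n = 3).

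Inside clusters, the cells richest in RNA had the lower share. Cells of each cluster and library were divided into 4 equal bins by UMIs, where the cluster had at least 80 cells. The share of the highest bin minus that of the lowest was -0.330 and -0.106 percentage points in regressing tumours 2 and 3, -0.337 and -0.242 in growing tumours 2 and 3, and -0.126, -0.0291 and -0.365 in regressing spleens 2 and 3 and the growing spleen. The 3′ tumours had 0.0344 in regressing replicate 1 and -0.0830 in growing replicate 1. The mean was -0.176 ± 0.147, lower in the highest bin in 8 of 9 libraries (exact sign-flip p = 0.0117). UMIs are also the denominator of the share, so the 2 measures are not independent. With bins by genes per cell, an alternative added after the values were seen, the difference was -0.212 ± 0.137 and negative in 9 of 9 libraries (exact sign-flip p = 0.0039, the smallest possible). Genes per cell were not separated from UMIs per cell, so the same dependence may hold there.

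In each of the 4 tumours of the 5′ kit the lowest bin had the highest share. Their mean was 2.20% ± 0.281 in the lowest bin and 2.02% ± 0.228 in the next, then 1.98% ± 0.237 and 1.94% ± 0.206 (n = 4), values given as a description. The growing spleen had 3.41%, 3.29%, 3.18% and 3.05% from the lowest to the highest bin, a steady order, and regressing tumour 1 had 1.79%, 1.77%, 1.82% and 1.83%. In the 5′ tumours, cells at 5% or more made up 6.62% of the lowest bin, from 4.04% to 8.58% over libraries, against 1.10%, 0.767% and 0.320% in the others. In spleens they made up 3.0% of the lowest bin and 1.19%, 0.921% and 0.974% of the others. The naive clusters had the lower share in the highest bin in every library with a value. The difference was -0.326 ± 0.108 in Naive 3 (7 of 7 libraries), and -0.384 ± 0.128 in Naive 1 and -0.280 ± 0.0482 in Naive 2 (3 of 3 spleens each). In all, 18 of 84 sets of a cluster in a library had the higher share in the highest bin. Among them were Initial Activation, Intermediate Activation and Activated Exhausted in both regressing spleens, by 0.236 and 0.249, by 0.0313 and 0.298, and by 0.511 and 0.499 percentage points in replicates 2 and 3. Activated Exhausted cells there had 2.18% in the lowest bin and 2.68% in the highest. Across the cells of a cluster and library the rank correlation of share and UMIs was weak, with a median of -0.109 over 62 sets in tumours and -0.144 over 37 sets in spleens. The spread of the share among cells of 1 set was a median of 3.15 times its counting error in tumours and 2.66 times in spleens.

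**Figure D4:**
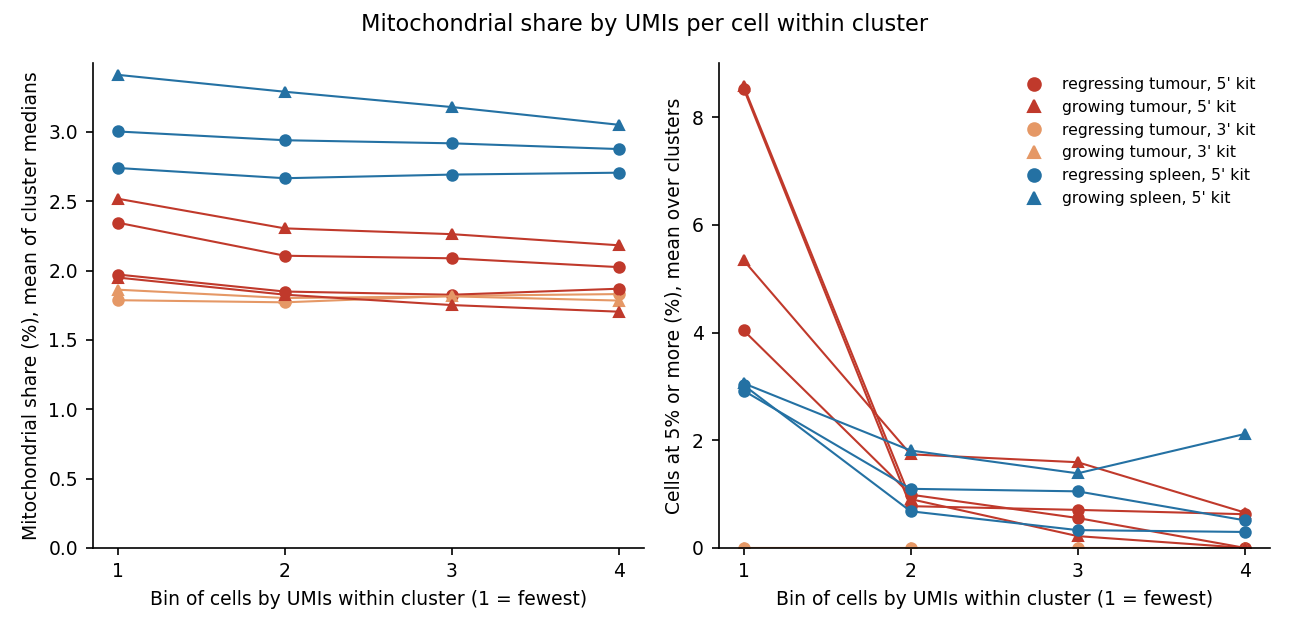
Mitochondrial share (left, mean of cluster medians in %) and percent of cells at a share of 5% or more (right, mean over clusters) by bin of cells ranked on UMIs within their cluster (x axis, 1 holds the fewest UMIs), with 1 line per library. Cells at 5% or more average 6.62% of the lowest bin in the 5′ tumours and 3.0% in spleens, and are 0% in every bin of the 3′ tumours.

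Differences between cell-cycle calls inside a cluster were small. Cells called in S phase differed from cells called in G1 of the same cluster by 0.0190 ± 0.0357 percentage points (7 of 9 libraries positive, exact sign-flip test, adjusted p = 0.191 over 3 phase pairs). Cells called in G2M were higher than cells in G1 by 0.0916 ± 0.0855 in 8 of 8 libraries (exact sign-flip test, adjusted p = 0.0234). The library values ran from 0.00314 in growing tumour replicate 2 to 0.221 in regressing tumour replicate 2, and regressing tumour 1 and growing tumour 1 rested on 1 cluster each. G2M minus S was 0.0525 ± 0.105 (exact sign-flip test, adjusted p = 0.191). The G2M difference did not pass with means over cells (0.139), without cells at 5% or more (0.0569) or with at least 50 cells per phase and cluster (0.0479).

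By cluster, G2M cells had the higher share in 6 of 6 libraries for Initial Activation, by 0.0723 ± 0.0761, in 5 of 5 for Intermediate Activation, by 0.208 ± 0.261, and in 4 of 5 for Highest Activated, by 0.261 ± 0.285. In the clusters named for division the order was turned around. G2M cells of Dividing 3 lay below G1 cells in 3 of 3 tumours, by -0.131 ± 0.0830, and G2M cells of Dividing 2 lay below S cells in 6 of 8 libraries, by -0.0828 ± 0.107. These cluster values are descriptions with no test of their own.

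T cell receptor labels allowed cells of named clonotypes to be set against other labelled cells of the same cluster in the 4 tumours of the 5′ kit. A clonotype is here the set of T cells given the same receptor label. Such a label can occur in more than 1 tumour, as in regressing tumour 2 and growing tumour 2, so its cells need not descend from 1 cell. The share of named clonotypes was lower by -0.0541 and -0.194 percentage points in regressing tumours 2 and 3 and by -0.00942 and -0.0704 in growing tumours 2 and 3. The mean was -0.0821 ± 0.0792, negative in 4 of 4 libraries, where the exact sign-flip test cannot go below its p of 0.125. Single clonotypes of at least 60 cells, over all clusters, had medians of 1.77% to 2.20% in regressing tumour 2 (16 clonotypes) and 1.60% to 1.88% in regressing tumour 3 (15 clonotypes). They had 1.93% to 2.41% in growing tumour 2 (7 clonotypes) and 1.57% to 1.72% in growing tumour 3 (4 clonotypes). These medians take no account of the mix of clusters in each clonotype.

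A group of spleen cells carries the label Top_Spleen in place of a clonotype name in the authors' table. It is read here from its name as the top clonotypes of the spleen, and the sources used here do not define it. This comparison was chosen after the values were seen. There were 310 such cells in regressing spleen 2, 396 in regressing spleen 3 and 10 in the growing spleen, and their median shares were 2.32%, 2.11% and 2.49%. Other labelled cells outside the naive clusters had 3.05%, 2.80% and 3.21%, and the tumour libraries of the same state and number had 2.02%, 1.78% and 1.71%. The top clonotypes of the spleen thus lay between the rest of their own spleen and the tumour.

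The difference was present inside clusters. In Intermediate Activation the top clonotypes had 2.50% against 3.24% in regressing spleen 2 and 2.15% against 2.98% in regressing spleen 3. In Activated Exhausted they had 2.22% against 2.88% and 1.96% against 2.45%, and in Alternative Exhausted 2.23% against 2.81% and 1.99% against 2.62%. Initial Activation showed the smallest gaps, with 2.36% against 2.67% and 2.12% against 2.44%. The mean over these 4 clusters was -0.569 percentage points in regressing spleen 2 and -0.568 in regressing spleen 3, and all 8 differences were negative (exact sign-flip p = 0.5, the smallest that 2 libraries allow). Median UMIs of the top clonotype cells were lower as well, 3911 against 5353.5 and 4861 against 7007.5, and with the same mix over strata of UMIs the mean difference was -0.545 percentage points.

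**Figure D5:**
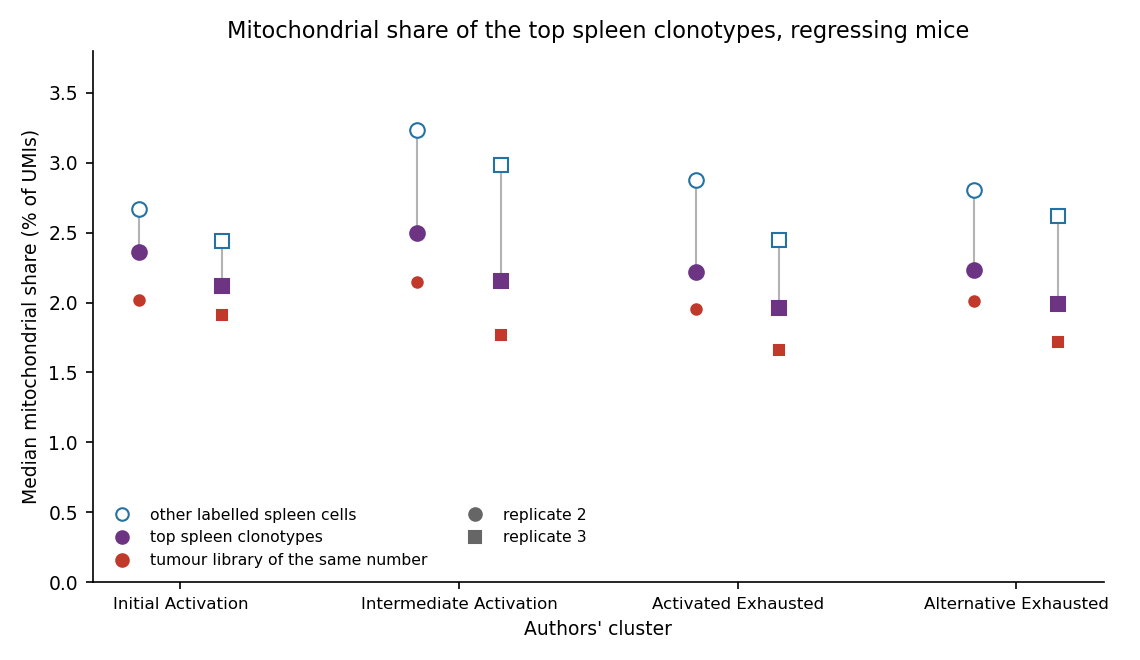
Median mitochondrial share (% of UMIs, y axis) in 4 clusters (x axis) of regressing spleens 2 (circles) and 3 (squares), for cells of the top spleen clonotypes (filled purple), other labelled spleen cells (open) and the tumour library of the same number. In all 8 pairs the top clonotypes lie below the other spleen cells, with differences from -0.831 to -0.303 percentage points.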

How the data were processed

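Per the labels, CD8 T cells were read as 10x Genomics 3′ or 5′ libraries, and Cell Ranger is named in the submitters' processing notes with no version. The authors deposited, for each cell, a raw UMI count, a gene count, the mitochondrial percent of those UMIs, and an S and a G2M score with a phase call per the file headers. The sources used here do not state which genes were summed, the build or any treatment of doublets. No cell was removed. Percent times UMIs gave whole mitochondrial UMIs in 100% of cells, within a tolerance of 1e-06. Variant tables of cultured A223 cells were left unused.

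Libraries served as replicates. Medians per cluster and library were taken from at least 20 cells, and every cluster and library is named. Class, phase, UMI and clonotype differences were tested inside libraries with two-sided exact sign-flip tests, and groups of libraries with two-sided exact permutation tests, with Benjamini-Hochberg adjustment at 0.05. UMI strata were 5, set per cluster for groups of libraries and for clonotypes, and per library and class pair, with clusters joined, for class differences. In data simulated with counting error and a small library effect, class, tissue and UMI differences of known size were recovered as point estimates. The real cells spread more widely than such data. The p-values of the simulated comparisons were not checked, and phase and clonotype differences were not simulated. A count of 0 carries the limit that 3 counts would set. Alternatives were means, pooled UMIs, other minimums of cells, G1 cells only, UMI strata, single tissues or kits, a replicate block and each library left out. The comparisons and classes were chosen with earlier results of these data known, and those of top spleen clonotypes, genes per cell, UMI floors, shared barcodes, Naive 3 alone and tumour against spleen effects after seeing the data. Python 3.11.15, numpy 2.4.6, pandas 2.3.3 and scipy 1.17.1 were used.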

Additional observations from a re-analysis of the deposited data

Results flagged for a closer look

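A single sample lay far from the others of its set among 21 sets of library values examined. The sets were tumour medians by cluster and differences inside libraries, most of the latter with spleens included. It was growing tumour replicate 2 in Highest Activated, with a median share of 2.34% against 1.71% to 1.89% in the remaining 5 tumours. Chance alone gives about 1 such set in 20.

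The difference between naive and activated cells was 0.562 percentage points larger in the 5′ tumours than in the spleens, by the test of the difference itself (exact permutation p = 0.0286, adjusted p = 0.129 over 9 effects). The difference between activated and exhausted cells differed in the opposite sense, by -0.343 percentage points (exact permutation p = 0.0286, adjusted p = 0.129). Neither passed the adjustment.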

How the results depend on the processing

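The naive minus exhausted difference kept its direction and its call in every setting that used both tissues. In tumours alone the class differences were 0.654 (naive minus exhausted), 0.581 (naive minus activated), 0.0591 (activated minus exhausted) and 0.0356 percentage points (dividing minus exhausted). In spleens alone they were 0.574, 0.148, 0.426 and 0.201. None was past the threshold, which no pair could reach in either tissue alone after adjustment over 5 class pairs. Leaving out each library gave 0.356 to 0.482 for naive minus activated, 0.0658 to 0.107 for dividing minus exhausted, -0.116 to -0.0598 for dividing minus activated (past the threshold without regressing tumour 1) and 0.0121 to 0.0266 for S minus G1 (past it without regressing spleen 2). Activated minus exhausted was 0.158 over UMI strata. Dividing minus exhausted lost its call with pooled UMIs (0.0441) and without cells at 5% or more (0.0835). In G1 cells only 3 tumour libraries held enough dividing cells, so no call could be reached. There dividing minus exhausted was 0.114 and dividing minus activated turned to 0.0160. G2M minus G1 lost its call with means (0.139), without cells at 5% or more (0.0569) and at 50 cells (0.0479).

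Tumour minus spleen ranged from -0.957 to -0.734 with each library left out (all cells -1.24 to -1.03). No call remained with any library left out, since fewer libraries raise the smallest p above 0.05, and 0 clusters were called there, at 50 cells or over UMI strata. Correlations of same-numbered deviations were 0.598, -0.304 and -0.533 between tumour states and -0.375, 0.455 and 0.204 between tissues. Differently numbered libraries had -0.410 to 0.714 and -0.609 to 0.487. Such correlations over few clusters cannot decide whether same-numbered libraries share a mouse or a day, which is not stated. With the replicate block tumour minus spleen was -0.935 (exact sign-flip p = 0.25, the smallest possible) and growing minus regressing 0.0262.

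Growing minus regressing, never past the threshold, changed sign in many settings. With each library left out it ran from -0.109 to 0.121 (all cells -0.102 to 0.144), with 0 to 3 clusters that did not overlap. By cluster it ran from -0.0940 to 0.122 in Activated Exhausted, -0.0586 to 0.145 in Alternative Exhausted, -0.195 to 0.0357 in Dividing 1, -0.179 to 0.0403 in Dividing 2, -0.0964 to 0.129 in Dividing 3, -0.0538 to 0.260 in Highest Activated, -0.00125 to 0.185 in IFN Stimulated, -0.138 to 0.106 in Initial Activation, -0.167 to 0.106 in Intermediate Activation and -0.490 to 0.0568 in Naive 3. Naive 3 also turned to 0.0568 at 50 cells, with the replicate block and in 5′ libraries. Intermediate Activation turned to 0.00935 with pooled UMIs, 0.0135 in G1 cells, 0.0208 over UMI strata and 0.0216 in 5′ libraries. Dividing 2 turned to 0.0396 with means and 0.0228 over UMI strata, Dividing 1 to 0.0214 over UMI strata and Dividing 3 to -0.0248 with pooled UMIs. Between kits, 3 clusters did not overlap with means, and 0 to 2 with each library left out. The cause of these changes was not tested.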
